A study of Mus musculus with 4 samples.

Results

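Interferon-stimulated genes were examined in FACS-sorted splenic follicular B (FOB) cells of WT and Hnrnpf bKO mice. The group was chosen by name, as 39 genes switched on by type I interferon in many cell types, and all 39 were found among the 55401 genes of the count table and passed the filter on low counts. The study deposited RNA-seq of 2 WT libraries and 2 Hnrnpf bKO libraries (labelled hnRNPF knockout), from C57BL/6 mice aged 7 weeks. WT mice carried loxP-flanked Hnrnpf alleles (Hnrnpf fl/fl) without Cre, and Hnrnpf bKO mice carried the same floxed alleles together with a Cre recombinase active in B cells. Loss of Hnrnpf and the presence of the Cre allele therefore came together in the bKO group and cannot be told apart. FOB cells were gated as B220+CD93−CD23highCD21low, and the sources used here do not state whether a library held 1 mouse or a pool, so that p-values measure the spread between these libraries alone.

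Type I interferons bind the receptor formed by IFNAR1 and IFNAR2, whose kinases JAK1 and TYK2 phosphorylate STAT proteins, STAT2 among them. Together with IRF9 these form the ISGF3 complex, which binds the interferon-stimulated response element (ISRE) in the promoters of its target genes. The products sense foreign nucleic acid, degrade RNA, block viral translation or carry the ISG15 modifier, and resting B cells express many of them at a low, tonic level. Hnrnpf encodes hnRNP F, an RNA-binding protein that binds G-rich stretches and regulates splicing.

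Total counts were 15698567 to 18908963 per library. Hnrnpf counts were 5780 and 6634 in WT against 1167 and 1194 in Hnrnpf bKO, which left 20.1% of the WT level. The B cell receptor genes Cd79a and Cd79b were abundant in all 4 libraries (at least 1632 CPM, counts scaled to the library total). Markers of other cells were low but not all level between genotypes. The summed neutrophil markers came to 14.5 and 17.8 CPM in WT and 29.4 and 51.6 CPM in Hnrnpf bKO, and 4 of the 7 tested (S100a8, S100a9, Ngp and Ltf) were called higher, while Ly6g had 1, 1, 1 and 13 counts. The macrophage and monocyte list summed to 26.7 and 32.2 CPM against 26.2 and 30.1 CPM, with 0 of 8 called in either direction by edgeR, and the plasmacytoid dendritic cell genes Siglech (5 to 21 counts) and Cox6a2 (0 or 1 count) were near 0 in every library. Of the conventional dendritic cell list, Flt3, which early B cells can also express, was called higher (140 and 205 against 277 and 436 counts, log2 fold change 1.12, edgeR adjusted p = 0.00149), while Xcr1 and Clec9a had 1 to 8 counts in every library. Cd93, which the gate selected against, was called higher in Hnrnpf bKO (log2 fold change 0.85). Of 7 marginal zone B cell genes, 3 were called lower (Cr2 -0.47, S1pr3 -0.46 and Dtx1 -0.23) and 1 higher (Cd1d1, 0.34). Of 3 genes listed for the follicular gate, Fcer2a (0.22) and Ighd (0.28) were called higher. The part of the cells behind these markers in the results that follow was not tested. In bulk RNA, fewer cells of a type and less RNA per cell cannot be told apart.

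Of the 39 interferon-stimulated genes, 8 rose and 1 fell in Hnrnpf bKO FOB cells, and 30 did not pass the test. The genes that rose were Ifi44, Ifi27, Gbp7, Oas1a, Samd9l, Gbp3, Trim25 and Stat2, with log2 fold changes of 0.23 to 2.37, and Trim30a fell by 0.33 on the log2 scale. Isg15, Ifit1, Ifit3, Mx1, Mx2, Rsad2 and Irf7 had log2 fold changes between -0.38 and 0.05 and were not called. These serve as common readouts of an interferon response, but were singled out here after their values were seen. The set leaves out the 8 members that rose, such as Ifi44 (2.37), Ifi27 (0.85) and Oas1a (0.54), and Trim30a, which fell. The edgeR intervals were wide for Rsad2 (-1.24 to 0.48), Ifit1 (-0.87 to 0.98) and Isg15 (-0.81 to 0.50). A rise or a fall in these genes was therefore not excluded. The tests were made with edgeR's quasi-likelihood test, and a gene was called at a Benjamini-Hochberg adjusted p of at most 0.05 over 14123 genes. The share of members called was 23.1%, where 6.97% of all tested genes were called, and the share that rose was 20.5% against a background of 4.15%. Genes that fell made up 2.83% of all those tested, which compares with 1 of 39 members. A fold of at least 2 was reached by Ifi44 alone, against 0.899% of all genes. Ifi44 passed the filter on low counts only through the Hnrnpf bKO libraries, so that it had to differ to be tested, and with at least 10 counts in every library 7 of 38 members were called higher and 0 by at least 2-fold. The median log2 fold change was 0.044 over the members and -0.0023 over all genes, and 25 of the 39 lay above 0. In 18 members the libraries of the genotypes did not overlap (46.2%), a share below that of 50.1% over all genes. When limma was run on log2(FPKM + 0.1) in place of edgeR on counts, 0 members were called, 10 had an unadjusted p under 0.05, and 45 genes were called in all.

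**Figure D1:**
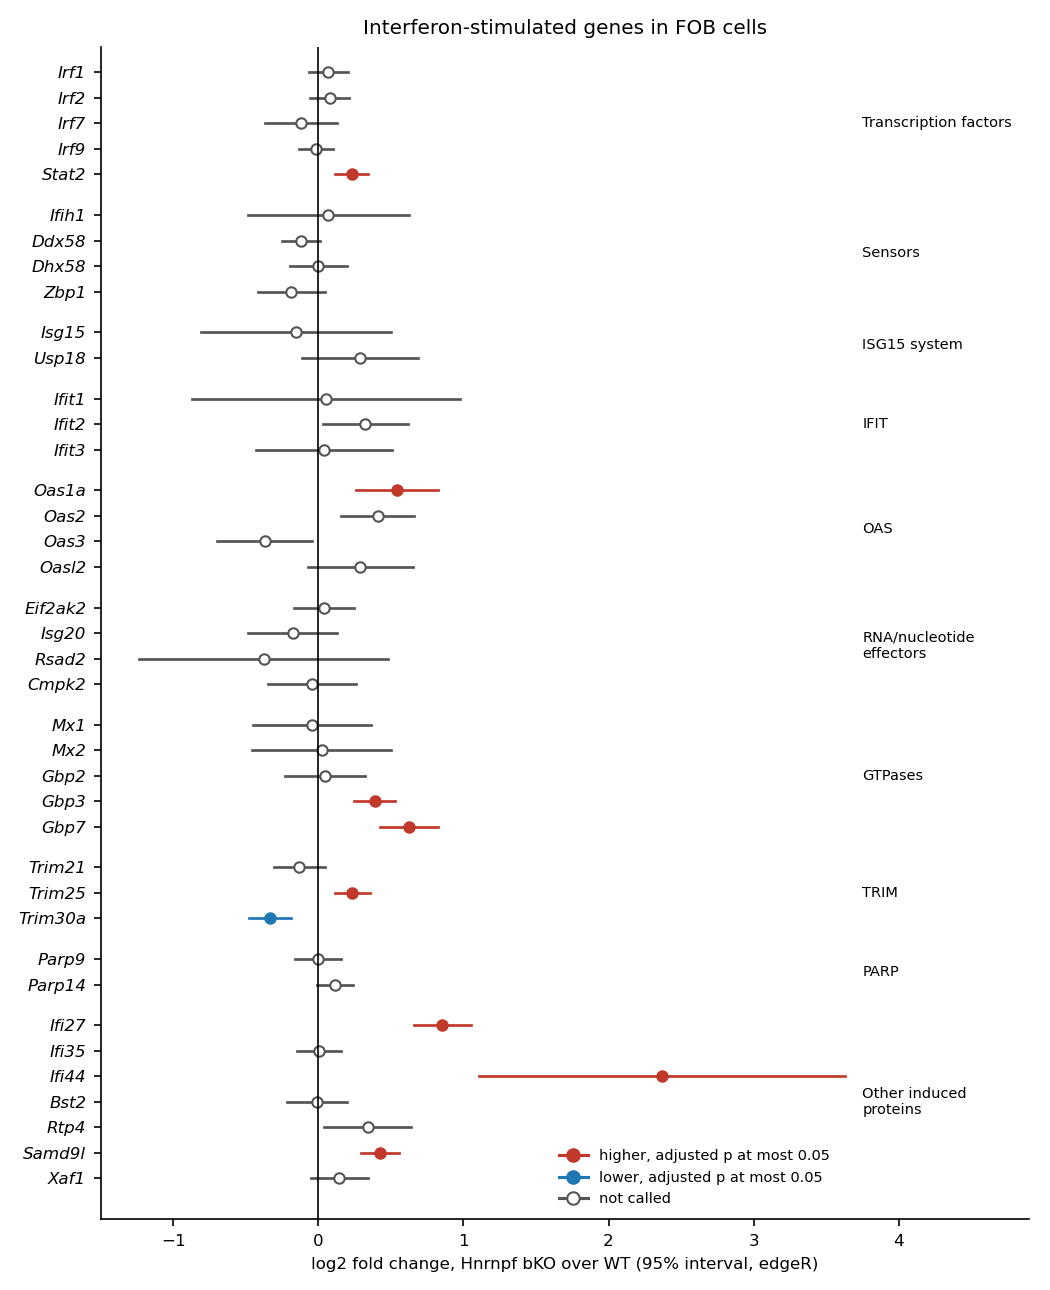
Log2 fold change of the 39 interferon-stimulated genes in Hnrnpf bKO over WT FOB cells (x axis) with 95% intervals from edgeR, grouped by role (right) and with 2 libraries in each genotype. Filled red points are the 8 genes called higher, the filled blue point is Trim30a, called lower, and open points are the 30 genes not called, which lie within 0.4 of 0 apart from Oas2 at 0.41.

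Among the members, abundance per exonic length (FPKM, fragments scaled to exonic length and library size) ran from a mean of 0.155 for Ifi44 to 121 for Samd9l over the 4 libraries. Samd9l, Ifi27 (60.1) and Trim25 (52.1) were the 3 most abundant, and all of them rose in Hnrnpf bKO. Ifit1 (0.917), Rsad2 (0.588), Ifih1 (0.535) and Ifi44 had a mean FPKM under 1. Thus 7 of the 8 genes that rose were expressed at a mean FPKM of 6.74 or more in these resting cells, with Ifi44 as the exception. The median over all 39 members was 8.44, so that this level was not particular to the genes that rose. Genes with few counts were also harder to call.

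**Figure D2:**
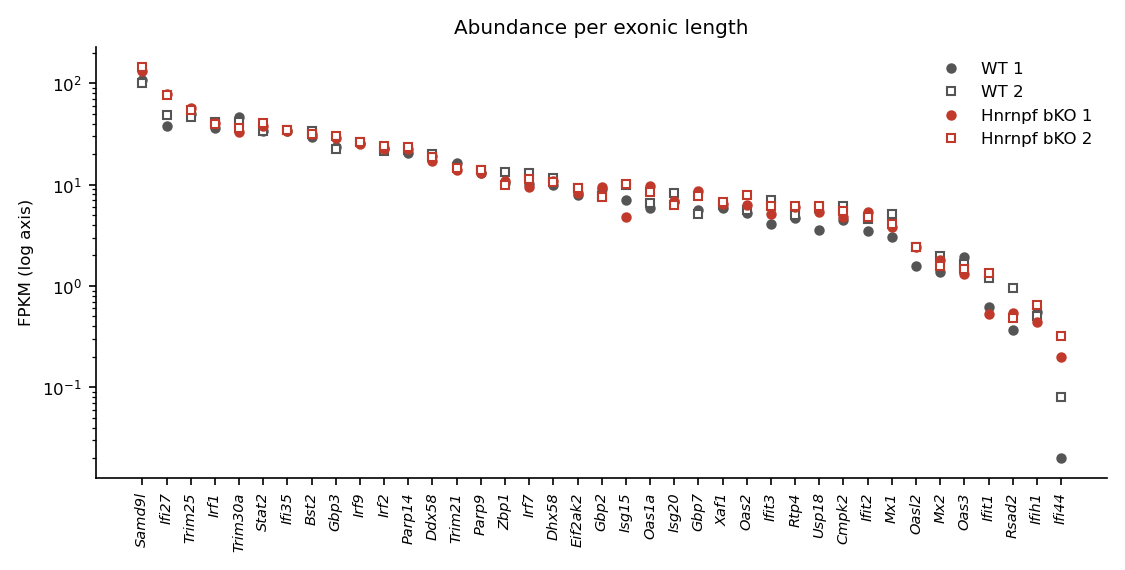
FPKM (log axis) of each member in the 4 libraries, ordered by the mean over all libraries; grey symbols are WT and red symbols Hnrnpf bKO. Values ran from under 0.1 for Ifi44 in WT to over 100 for Samd9l, and for most members the 4 symbols nearly coincide.

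The transcription factors of the pathway were well expressed, and 1 of the 5 rose. STAT2 is a subunit of ISGF3 and is itself induced by interferon. Stat2 (chromosome 10, 128270559 to 128292849) had 3285 and 3741 counts in WT against 3538 and 4303 in Hnrnpf bKO. Both Hnrnpf bKO libraries lay above both WT libraries when scaled to library size, at 233 ± 10.3 CPM against 199 ± 2.98 CPM (SD, n = 2). The log2 fold change was 0.23 ± 0.05 (SE, edgeR adjusted p = 0.0207). Without WT replicate 2 the adjusted p was 0.0751, and without bKO replicate 2 it was 0.128. Irf9, the DNA-binding subunit of ISGF3, had 2285 and 2702 counts in WT against 2137 and 2554 in Hnrnpf bKO (log2 fold change -0.01, 95% interval -0.13 to 0.10). Irf1 and Irf2, an activator and a repressor that bind related elements, were at 0.07 and 0.08, and Irf7, the factor that drives interferon alpha genes, was at -0.12 with 626 and 920 counts in WT against 565 and 783 in Hnrnpf bKO. None of these 4 was called.

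The sensors of nucleic acid gave 0 calls of 4 in edgeR, and 0 of the 4 had an unadjusted p under 0.05. Ddx58, which encodes the RNA sensor RIG-I, had 2216 and 2643 counts in WT against 1877 and 2369 in Hnrnpf bKO (log2 fold change -0.12, interval -0.25 to 0.01). Zbp1, a sensor of Z-form nucleic acid, had 602 and 888 counts against 598 and 636 (-0.19). It was called lower only when WT replicate 1 was left out, at -0.34 (edgeR adjusted p = 0.045). Dhx58, encoding LGP2, was at 0.00 and Ifih1, encoding MDA5, at 0.07 with 56 to 96 counts per library.

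The ISG15 modifier system and the IFIT family, which binds viral RNA at its 5′ end, gave 0 calls of 5 in edgeR, and Ifit2 alone had an unadjusted p under 0.05. Isg15 had 81 and 132 counts in WT against 53 and 130 in Hnrnpf bKO, so that the ranges overlapped (log2 fold change -0.15 ± 0.30 SE). Usp18, the protease that removes ISG15 and restrains the receptor, had 163 and 309 counts against 236 and 307 (0.29 ± 0.18). Ifit1 had 27 and 60 counts against 22 and 64, and Ifit3 had 116 and 230 against 142 and 193. Ifit2 had 226 and 341 counts against 329 and 339, with no overlap after scaling and a log2 fold change of 0.32 that was not called (edgeR adjusted p = 0.191). The promoter stretch of Isg15 carried overlapping copies of the ISRE core and that of Ifit1 had 2 separate ones, and they are shown as examples of strong interferon targets that were not called. The stretches are RefSeq sequence of GRCm38.p6, 5′ to 3′ on the strand of the gene and upstream of its start, and capitals mark a match to the motif GAAANNGAAA or to its reverse complement.
Isg15, chr4:156200850-156200921, minus strand: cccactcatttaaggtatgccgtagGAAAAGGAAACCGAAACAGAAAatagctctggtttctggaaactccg
Ifit1, chr19:34640760-34640838, plus strand: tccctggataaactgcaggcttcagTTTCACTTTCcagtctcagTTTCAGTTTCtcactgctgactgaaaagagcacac

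The OAS family makes the 2-5A messenger that activates RNase L, and its members did not move together. Oas1a (chromosome 5, 120896256 to 120907521) had 183 and 232 counts in WT against 286 and 285 in Hnrnpf bKO, and rose from 11.7 ± 0.711 to 17.1 ± 1.65 CPM (SD, n = 2). The log2 fold change was 0.54 ± 0.13 (SE, edgeR adjusted p = 0.0254), and the call was lost without WT replicate 1 (0.0875), without bKO replicate 1 (0.165) and with DESeq2 (0.121). Oas2 had 381 and 471 counts against 437 and 641, with a log2 fold change of 0.41 that fell just outside the threshold (edgeR adjusted p = 0.0539), while it was called without bKO replicate 1 (0.00555) and with no filter on low counts (0.00413). Oas3 had 226 and 222 counts against 144 and 187, a log2 fold change of -0.37 (edgeR adjusted p = 0.181). Oasl2, a paralog on another part of chromosome 5, had 166 and 291 counts against 243 and 282. Oas2, Oas3 and Oas1a lie in 1 cluster of 177189 bases on chromosome 5, and between Oas3 and Oas1a the neighbours Oas1c and Oas1b had log2 fold changes of -0.15 and -0.10 and were not called. Within the cluster the windows of Oas1a and Oas3 both held the ISRE core, although the fitted changes had opposite signs.
Oas1a, chr5:120907526-120907570, minus strand: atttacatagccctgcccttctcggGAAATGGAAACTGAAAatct
Oas3, chr5:120777700-120777759, minus strand: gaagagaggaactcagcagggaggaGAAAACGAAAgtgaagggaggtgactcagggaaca

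The RNA and nucleotide effectors gave 0 calls of 4 in edgeR, and 0 of them had an unadjusted p under 0.05. Eif2ak2, encoding the translation inhibitor PKR, had 655 and 900 counts in WT against 664 and 848 in Hnrnpf bKO (log2 fold change 0.04). Rsad2, which encodes viperin, and Cmpk2, its neighbour on chromosome 12, had 26 and 79 against 37 and 38 counts, and 303 and 483 against 310 and 410 counts. For both genes the Hnrnpf bKO libraries lay between the WT libraries after scaling. Isg20, a 3′ exonuclease, was at -0.18.

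Of the 5 large GTPases, the guanylate-binding proteins Gbp3 and Gbp7 rose, and Gbp2, Mx1 and Mx2 were not called. Guanylate-binding proteins assemble on the membranes of intracellular pathogens. Gbp7 (chromosome 3, 142530342 to 142550149) had 511 and 541 counts in WT against 763 and 774 in Hnrnpf bKO, or 29.8 ± 1.99 against 45.9 ± 3.87 CPM (SD, n = 2). Both Hnrnpf bKO libraries were higher, with a log2 fold change of 0.62 ± 0.09 (SE, edgeR adjusted p = 0.0014). Gbp3 (chromosome 3, 142560026 to 142573209) had 1245 and 1380 counts against 1479 and 1790, or 74.3 ± 2.54 against 97.1 ± 3.94 CPM. Its log2 fold change was 0.39 ± 0.06 (edgeR adjusted p = 0.00328), and both Gbp7 and Gbp3 were called whichever library was left out. Gbp2 had 371 and 365 counts in WT against 374 and 346 in Hnrnpf bKO, with overlapping libraries and a log2 fold change of 0.04 (95% interval -0.23 to 0.32). The 3 genes lie on the same strand within 107667 bases of chromosome 3. All 3 promoter windows held the ISRE core at a like distance from the start, between 30 and 59 bases upstream, and they are shown as neighbours with a shared motif and unlike changes.
Gbp7, chr3:142530258-142530317, plus strand: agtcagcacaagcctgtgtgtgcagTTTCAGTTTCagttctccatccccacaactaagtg
Gbp3, chr3:142559974-142560039, plus strand: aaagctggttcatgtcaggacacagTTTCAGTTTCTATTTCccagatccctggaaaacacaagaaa
Gbp2, chr3:142620579-142620638, plus strand: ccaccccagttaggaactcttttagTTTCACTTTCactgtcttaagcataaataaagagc

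Mx1 and Mx2, dynamin-like GTPases that trap viral ribonucleoproteins, had 190 and 368 against 227 and 282 counts, and 81 and 136 against 103 and 104 counts. For both, the Hnrnpf bKO libraries fell between the WT libraries. Mx1 and Mx2 transcripts are 94.8% identical over 921 bases, so reads from that stretch may be shared between them.

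The TRIM proteins, a family of ubiquitin ligases, had 1 gene that rose and 1 that fell. Trim25, which acts on RIG-I, had 4708 and 5025 counts in WT against 5188 and 5700 in Hnrnpf bKO (chromosome 11, 88999376 to 89020293). It rose from 276 ± 16.8 to 325 ± 9.02 CPM (SD, n = 2), a log2 fold change of 0.23 ± 0.06 (SE, edgeR adjusted p = 0.0223), and the call was lost without WT replicate 2 (0.135) and without bKO replicate 1 (0.112). Trim30a (chromosome 7, 104409025 to 104465193), known in mice as a restraint on signalling downstream of Toll-like receptors, had 3113 and 3221 counts in WT against 2133 and 2673 in Hnrnpf bKO. Both Hnrnpf bKO libraries were lower, at 143 ± 9.3 against 180 ± 14.9 CPM, and the log2 fold change was -0.33 ± 0.07 (edgeR adjusted p = 0.00975). Trim30a narrowly missed the threshold without WT replicate 1 (0.0539) and without bKO replicate 1 (0.0602). Its transcript is 90.1% identical to that of Trim30d over 1719 bases, so its counts are uncertain to that extent. Trim21, an intracellular antibody receptor, had 999 and 1053 counts against 803 and 984 (-0.13, not called). The stretch of Trim30a, the gene that fell, and that of Stat2, which rose, each carried 1 match to the ISRE core.
Trim30a, chr7:104465195-104465254, minus strand: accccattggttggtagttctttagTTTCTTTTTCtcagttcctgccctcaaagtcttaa
Stat2, chr10:128270251-128270310, plus strand: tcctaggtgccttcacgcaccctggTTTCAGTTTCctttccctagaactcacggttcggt

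The PARP family gave 0 calls of 2 in edgeR, and 0 had an unadjusted p under 0.05. Parp9 had 1047 and 1294 counts in WT against 1001 and 1216 in Hnrnpf bKO (log2 fold change -0.0035), and Parp14 had 3088 and 3889 against 3254 and 3917 (0.12). Parp9 shares 682 bases with Dtx3l on the opposite strand.

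Of the other 7 interferon-induced genes, Ifi27, Samd9l and Ifi44 rose. Ifi27 encodes a small mitochondrial protein and is used as a blood marker of interferon exposure. Ifi27 (chromosome 12, 103434211 to 103440239) had 902 and 1343 counts in WT against 1799 and 2027 in Hnrnpf bKO, or 62.9 ± 10.9 against 114 ± 1.14 CPM (SD, n = 2). Both Hnrnpf bKO libraries stood above the higher WT library. The log2 fold change was 0.85 ± 0.09 (SE, edgeR adjusted p = 0.000128), and it ranged from 0.69 to 1.05 as each library was left out.

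Samd9l, a restraint on translation and proliferation, was the most abundant member. Samd9l (chromosome 6, 3372257 to 3399572) had 9529 and 10329 counts in WT against 11179 and 14302 in Hnrnpf bKO, and rose from 563 ± 28.1 to 756 ± 60.3 CPM (SD, n = 2). The log2 fold change was 0.43 ± 0.06 (SE, edgeR adjusted p = 0.000948), with no overlap between genotypes and a call whichever library was left out.

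Ifi44 (chromosome 3, 151730922 to 151749960) had the highest fold and the fewest counts of the group, with 2 and 9 counts in WT against 19 and 36 in Hnrnpf bKO. Both Hnrnpf bKO libraries were higher, and the log2 fold change was 2.37 ± 0.58 (SE, edgeR adjusted p = 0.027). Pooled by genotype, 55 against 11 counts gave a ratio of 5.27, with a 95% interval of 2.73 to 11.2 that covers counting error only. The call was lost without WT replicate 1 (edgeR adjusted p = 0.13) and without bKO replicate 2 (0.229). As each library was left out the log2 fold change ranged from 1.76 without WT replicate 1 to 3.65 without WT replicate 2, and in limma with no filter it was 1.27, so that its size was poorly fixed. Rtp4, a chaperone for receptors, had 163 and 203 counts against 201 and 239 (log2 fold change 0.34, edgeR adjusted p = 0.178), and Bst2 (tetherin), Ifi35 and Xaf1 were at -0.01, 0.00 and 0.14.

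**Figure D3:**
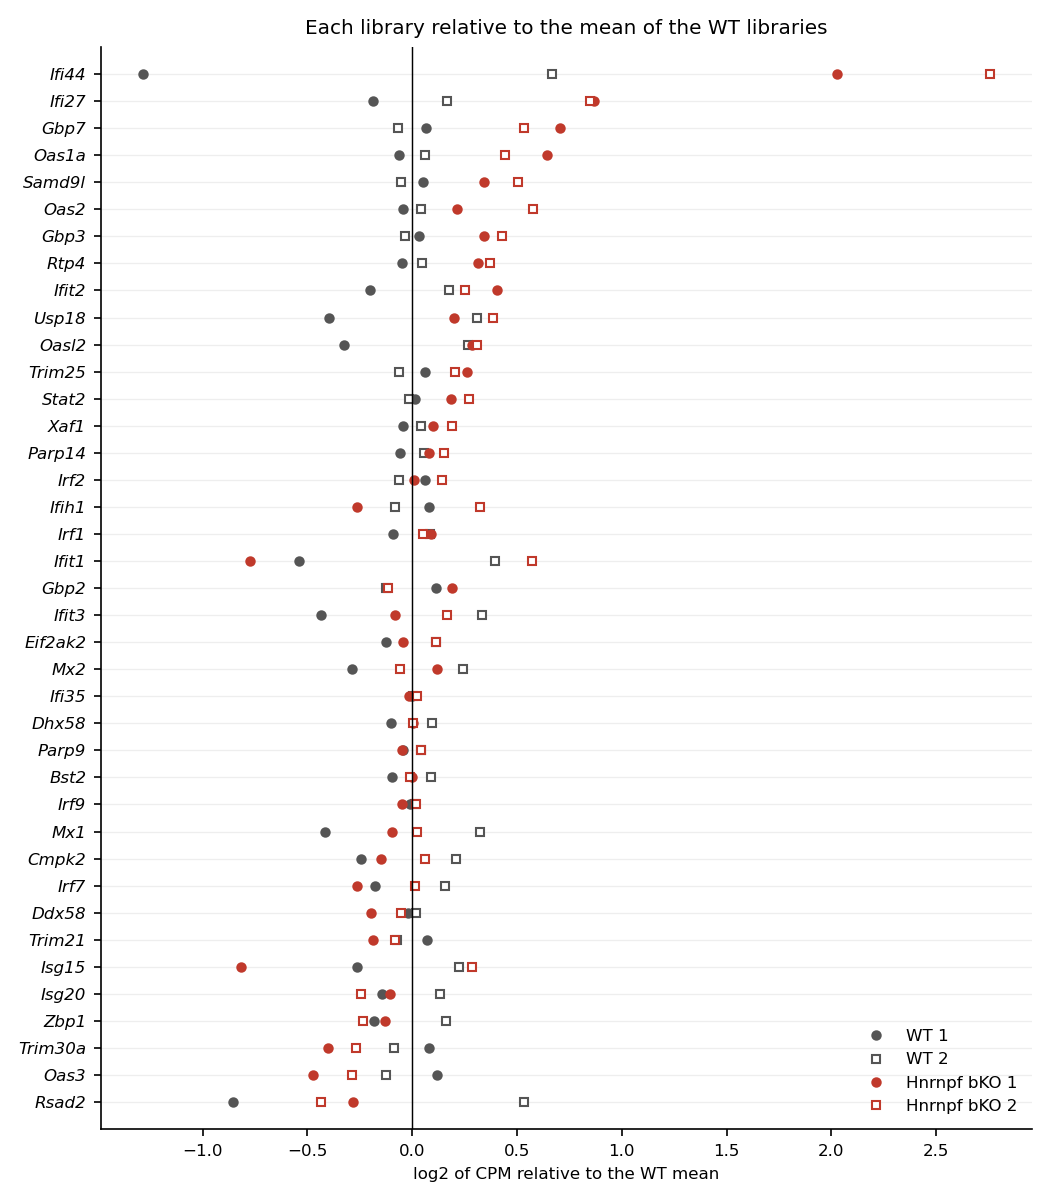
CPM of each member in each library, as log2 relative to the mean of the WT libraries, ordered by fold change; grey is WT and red Hnrnpf bKO, with circles for replicate 1 and squares for replicate 2. The red symbols lie right of the grey ones for the genes at the top down to Ifit2, and for Rsad2, Mx1, Cmpk2, Mx2 and Ifit3 the WT libraries lie to either side of the red symbols.

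The WT libraries differed from each other in some members. Among the 34 members with a mean of at least 100 counts, 6 were higher by 0.4 or more on the log2 scale in WT replicate 2 than in WT replicate 1 (17.6%), against 1.89% of the 9875 genes at that depth, a threshold chosen after the values were seen. These were Ifit3 (0.77), Mx1 (0.74), Usp18 (0.70), Oasl2 (0.59), Mx2 (0.53) and Cmpk2 (0.45), and 0 of the 34 differed that far in the other direction. Some markers of other cells also differed between WT replicates 1 and 2, with 5 and 21 counts of Siglech, 60 and 240 of the plasma cell gene Jchain and 27 and 62 of the macrophage gene Csf1r. These were picked from lists in which other genes went the other way, such as Klk1 (9 and 3 counts), Mzb1 (760 and 825) and Cd68 (168 and 155) after scaling. Summed over each list, WT replicates 1 and 2 had 221 and 226 CPM for plasmacytoid dendritic cells and 375 and 395 CPM for plasma cells. The macrophage and monocyte list had 26.7 and 32.2 CPM. The part of such cells in the difference between the WT libraries was not tested. Between the Hnrnpf bKO libraries 0 of the 34 were higher by 0.4 or more in replicate 2, against 1.01% of genes. Below that depth the ratio of replicate 2 over replicate 1 in WT was 1.95 for Ifi44, 1.39 for Rsad2, 0.93 for Ifit1, 0.49 for Isg15 and -0.16 for Ifih1 on the log2 scale. In Hnrnpf bKO it was 0.73, -0.15, 1.35, 1.10 and 0.59 for the same 5 genes. The median deviation of the 39 members from their mean over libraries was -0.12 in WT replicate 1, 0.05 in WT replicate 2, 0.00 in bKO replicate 1 and 0.09 in bKO replicate 2 on the log2 scale. Accordingly, the median fold change of the members was -0.015 on the log2 scale without WT replicate 1 and 0.18 without WT replicate 2. Without WT replicate 2, Usp18 (0.70), Oasl2 (0.63) and Ifit2 (0.53) were also called higher (edgeR adjusted p = 0.0155, 0.0282 and 0.045). None of the 4 genes that were called whichever library was left out (Ifi27, Gbp7, Gbp3 and Samd9l) was among the 6.

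**Figure D4:**
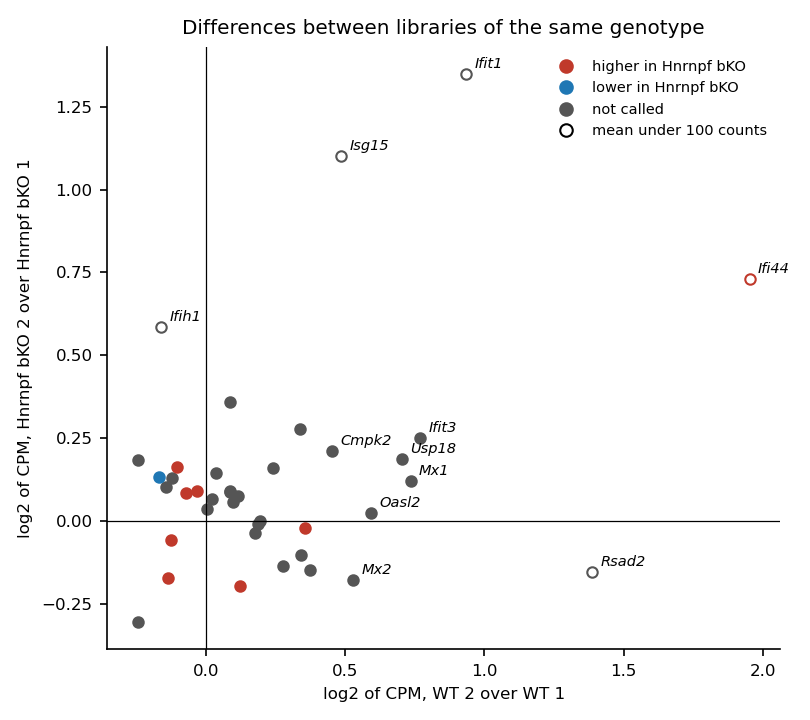
Log2 ratio of CPM between the WT libraries (x axis) and between the Hnrnpf bKO libraries (y axis) for each member, coloured by its call between genotypes and open where the mean was under 100 counts. Ifit3, Mx1, Usp18, Oasl2, Mx2 and Cmpk2 lie to the right at 0.45 to 0.77, and their ratios between the Hnrnpf bKO libraries stay between -0.18 and 0.25.

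Of 22 annotated interferon genes, 19 had 0 counts in every library. All 16 annotated type I alpha and beta genes had 0 counts in all 4 libraries, which allows up to 3 counts or 0.159 to 0.191 CPM in a library. The others were Ifng with 1 count in each WT library, Ifnz with 1 count in WT replicate 2 and Ifnk with 3 counts in bKO replicate 2. The receptor genes Ifnar1 and Ifnar2 had log2 fold changes of 0.03 and -0.02 and were not called. Of the 10 receptor, kinase and STAT genes listed, Tyk2 alone was called, lower at -0.22 (2777 and 3377 against 2308 and 2702 counts, edgeR adjusted p = 0.0257). The call of Tyk2 was lost without WT replicate 2 (0.156), without bKO replicate 1 (0.127), with the replicate block (0.0729) and with DESeq2 (0.052). Of 5 negative regulators, Ptpn6, the phosphatase SHP-1, was called lower at -0.25, and the call was lost without bKO replicate 2 (0.0532). Of 13 genes of upstream sensing, Ikbke (0.57; 726 and 819 against 1018 and 1169 counts) and Irf5 (0.19) rose, and the others were not called. The call of Irf5 was lost whichever library was left out (edgeR adjusted p of 0.0565 without bKO replicate 1 to 0.199 without bKO replicate 2) and with the replicate block (0.101), while that of Ikbke was kept in these fits.

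In a list of 79 other interferon-stimulated genes, 70 were tested, 12 rose and 2 fell (20.0% called), with a median log2 fold change of 0.04. Ly6a (Sca-1), a surface protein induced by interferon, had the lowest p, with 3162 and 3879 counts in WT against 6516 and 7169 in Hnrnpf bKO. The genotypes were well apart, and the log2 fold change was 1.04 ± 0.05 (SE, edgeR adjusted p = 1.7e-07). Ddx60, a helicase, had 148 and 188 counts against 256 and 259 (0.70), and Ifi27l2a, a neighbour of Ifi27 on chromosome 12, had 1147 and 1498 against 1468 and 1703 (0.34). Ifi213, Trim34a, Uba7 (the activating enzyme for ISG15) and Slfn2 rose by 0.26 to 0.35 on the log2 scale, while Trim26 (-0.23) and the peptide transporter gene Tap1 (-0.19) fell. Trim26 and Tap1 kept their call in 1 of the 4 fits with a library left out, without WT replicate 1, and lost it with the replicate block (edgeR adjusted p = 0.0601 and 0.138). Slfn2 lost it without WT replicate 2 (0.0656), without bKO replicate 2 (0.0817) and with the block (0.0516). The call was also lost for Ddx60 without bKO replicate 1 (0.0685), for Trim34a without WT replicate 2 (0.0551), and for Ifi27l2a and Uba7 without WT replicate 1 (0.0553 and 0.0597).

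The deposited splicing table, which holds events that passed the authors' thresholds, had 5 events in 4 of the 39 members. Among members with a mean of at least 100 counts, 4 of 34 had an event (11.8%), near the background of 10.6% of genes at that depth. Differences in the table are inclusion in WT minus inclusion in Hnrnpf bKO, as a fraction of transcripts. Ifi27 had a skipped exon with a difference of 0.354 (FDR 4.45e-08) and a mutually exclusive exon pair with 0.243 (FDR 9.75e-07), so that the skipped exon was included less in Hnrnpf bKO. Trim30a had a skipped exon with 0.347 (FDR 9.97e-11), which was also included less. In Mx1 a skipped exon was included more in Hnrnpf bKO, with a difference of -0.238 (FDR 0.00323), and Parp9 had an alternative 5′ splice site with -0.227 (FDR 0.0162). Thus 2 of the 9 members whose level was called (Ifi27 and Trim30a) also had an event, while Mx1 and Parp9 had an event and a level change near 0. In the pathway, Tyk2 had a skipped exon (0.266, FDR 1.13e-08).

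The ISRE core was found in promoters of called and of uncalled members. RefSeq windows from 250 bases before to 50 bases after the start were matched for 29 of the 39 members, and those of Dhx58, Zbp1, Usp18, Oas2, Mx1, Mx2, Parp9, Parp14, Ifi27 and Rtp4 were not matched. The motif GAAANNGAAA, searched on both strands, was present in 17 of the 29 (58.6%), against 3.99% of the windows of 27025 genes. It was present in 5 of the 8 matched members that were called and in 12 of the 21 that were not. Samd9l, Trim25 and Ifi44, which rose, had no match to these letters in the window. The shorter GAAANNGAA, which is contained in the longer motif, was found in 20 of the 29 (69.0%, against 9.76%), among them 8 of the 8 called members, Samd9l, Trim25 and Ifi44 included, and 12 of the 21 others. The match of Samd9l lay 39 to 47 bases after the start, and that of Ifi44 spanned the start. Within the last 100 bases before the start, the longer motif was found in 8 of the 29 (27.6%, against 1.14%), in 4 of the 8 called and 4 of the 21 others. These splits are counts without a test. The interferon gamma-activated site motif TTCNNNGAA was found in 9 of the 29 (31.0%, against 9.55%), in 2 of the 8 called and 7 of the 21 others, again without a test.

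**Figure D5:**
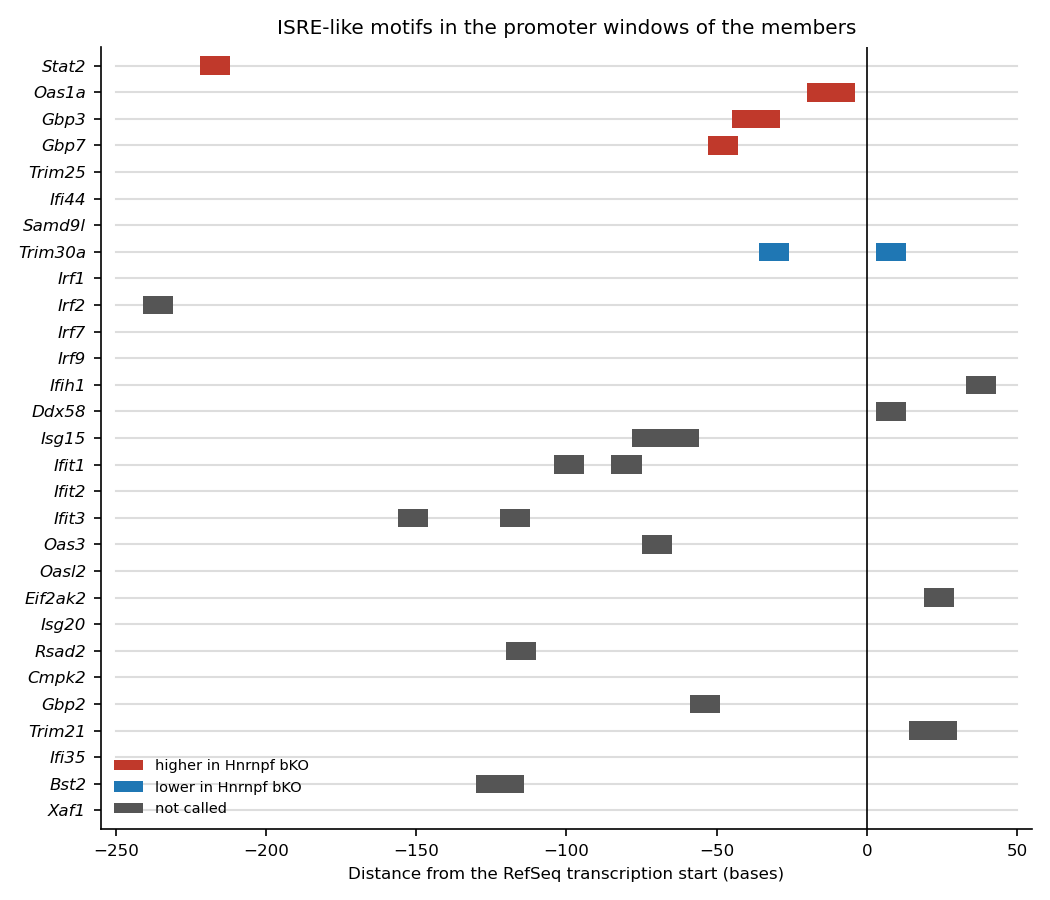
Position of ISRE core matches (bars) along the promoter windows of the 29 matched members, in bases from the RefSeq start; red, blue and grey bars belong to members called higher, called lower and not called, and the windows of both RefSeq starts of Trim30a are drawn on 1 line. Gbp7, Gbp3 and Gbp2 have their matches within 60 bases upstream of the start, and 17 of the 29 members have at least 1 match.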

How the data were processed

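RNA-seq was made from 4 libraries of sorted FOB cells, 2 for each genotype (poly(A) mRNA, paired-end, a kit that does not mark strand). The authors trimmed reads with cutadapt 1.9.1, aligned them to GRCm38 with HISAT2 2.0.1 and counted them per gene with HTSeq 0.6.1, and the deposited counts are whole, unnormalized reads per gene (15698567 to 18908963 per library). The deposited FPKM values were made by the authors from these counts and exonic length. Exonic length in bases was given as a deposited score for each gene. For splicing, the authors ran rMATS, and their deposited table gives an inclusion difference as a fraction and an FDR (adjusted p-value), and these were copied without a test. The annotation release and strand setting of the counting are not given in the sources used here.

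Counts were tested with edgeR 4.0.16 (TMM, filterByExpr, glmQLFTest, adjusted p over 14123 genes), tested first on simulated data. CPM used the library totals over the genes left by the filter, multiplied by the TMM factors. Alternatives were RLE and upper-quartile scaling, DESeq2 1.42.0, no filter, a minimum of 10 counts per gene in each library, limma 3.58.1 on log2(FPKM + 0.1) or log2(FPKM + 1) with a mean FPKM of at least 0.5, limma with no filter, the replicate block, each library left out (a lone library was assumed to vary like the other group), other thresholds, and a shorter motif and window. The members, roles and lists were chosen with earlier results of these data known. Libraries are given for members called, with splicing events, or with the highest level or largest change of a role, and for other members where counts were of use. Of the pathway genes outside the members, Ifnar1, Ifnar2 and the called genes with the lowest p were named, and Irf5 and Tap1 were chosen after their values were seen. Some genes of the pathway are not reported here. An exact permutation test of 2 against 2 libraries cannot go below p = 0.333, so none was used.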

Additional observations from a re-analysis of the deposited data

How the results depend on the processing

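Direction was kept by Hnrnpf and the 9 called members under every alternative that fitted them. Ifi44 had no value to compare with DESeq2, with at least 10 counts in every library or in limma with a filter on FPKM. Against 8 members called higher, 1 lower and 1 higher by at least 2-fold, limma on log2(FPKM + 0.1), on log2(FPKM + 1) and with no filter each called 0, 0 and 0, with 10 members at an unadjusted p under 0.05 in each. At an adjusted p of at most 0.01 there were 4 higher and 0 by at least 2-fold. DESeq2 and a minimum of 10 counts in every library gave 0 by at least 2-fold, where Ifi44 had no adjusted p. Leaving out each library gave 6 to 9 higher, 0 to 1 lower (0 without bKO replicate 1), 0 to 2 by at least 2-fold, and a median log2 fold change of -0.015 to 0.18, with 0.18 without WT replicate 2 and 0.14 without bKO replicate 1. Hnrnpf stayed at -2.32 but missed the threshold in limma with no filter (adjusted p = 0.0509). The ISRE core was in 8 members when the window was the last 100 bases before the start. Genes with few counts (Ifi44, Ifit1, Rsad2, Ifih1, Isg15) had standard errors of 0.26 or more, so that changes of the size seen in Stat2 were not detectable in them.

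With the replicate number as a block, 5 members were higher and 1 lower, and Stat2 (adjusted p = 0.0684), Trim25 (0.0518) and Oas1a (0.0552) missed the threshold in edgeR; the calls of the other 6 were kept. The labels do not say what the numbers share, and the deviations of same-numbered libraries had r = -0.0869 across 14123 genes, which are not independent replicates.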

Other observations

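Splicing events were also listed for interferon-stimulated genes outside the 39. Phf11a had 2 skipped-exon events with inclusion differences (WT minus Hnrnpf bKO) of 0.568 and 0.643, larger than any event of the members. Gbp8 had a skipped exon at -0.294 and Traf3, an adaptor of interferon induction, had 2 at 0.159 and 0.346. Trim30d, the near-identical neighbour of Trim30a, had 2 skipped-exon events at 0.152 and 0.13, in the same direction as that of Trim30a.

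Several members share sequence with another gene. The transcript of Ifit3 is 97.8% identical to that of Ifit3b over 1700 bases, that of Oas1a is 97.6% identical to that of Oas1g over 1861 bases, and Oas1g had a mean of 1.75 counts. Samd9l is 94.9% identical to Gm20559 (mean of 6375 counts) over 277 bases, and Isg15 is 95.2% identical to AC151275.1 (32 counts) over 482 bases. Oas3 and Xaf1 each matched many genes over shorter stretches, such as Xpo6 for Oas3 (93.1% over 335 bases, mean of 4408 counts). Irf9 overlaps Rnf31 by 123 bases on the same strand, and Irf7 overlaps Phrf1 by 45 bases on the opposite strand.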
